A study of Mus musculus with 36 samples.

Results

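The step from 6 to 8 weeks of age, at the onset of the period of muscle regeneration in the mdx mouse, was measured on 4 of the 36 arrays of a time course of hindlimb muscle. They were chosen by their labels alone, which pair 6 and 8 weeks on 2 arrays of mdx mice and 2 arrays of control mice, and all 6754 named probes were read on each of them. The mdx mice, which lack full-length dystrophin, came from a cross of C57Bl/10ScSn-mdx/J with C57Bl/6NCrl and CBA/JCrl, and the control mice were C57Bl/10ScSnOlaHsd, so a difference between the strains holds the mixed background as well as the mutation. No group carried a treatment. Each of the 4 arrays compared 1 animal of 6 weeks with 1 of 8 weeks, 8 animals in all, and the letters A and B name different animals at each age, not 1 animal followed over time. Amplified RNA was labelled with Cy3 or Cy5 and hybridised to oligonucleotides printed in duplicate. Each value below is a natural log ratio, turned so that a positive value is a higher signal at 8 than at 6 weeks, after the mean over the 18 arrays of the strain had been subtracted from each spot to remove the dye effect. On this scale 0.35 is a ratio of 1.42 and 0.69 a ratio of 1.99, and low signals are compressed, since the authors' normalization equals the natural log only at high intensities.

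Dystrophin links the actin of the muscle fibre to the matrix outside it through a complex of membrane proteins, and fibres without it break down in repeated cycles. Dying fibres are cleared by invading macrophages and replaced by satellite cells, the muscle stem cells, which divide, turn on myogenic factors and fuse. In these weeks the muscle of healthy mice is still maturing, with fast glycolytic fibres making up most of the hindlimb. In whole tissue, fewer cells of a type and less RNA per cell cannot be told apart.

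The 2 arrays of a strain had little in common across the probes. The correlation between replicates A and B across 6754 probes was 0.0682 in mdx and 0.215 in control mice, within a range of -0.411 to 0.567 over the 18 steps of the series, while the correlation across strains lay between 0.0492 and 0.220. Such correlations run over genes, not over independent samples, and all arrays share one normalization. The spread of the values was wider on the mdx arrays (SD 0.394 and 0.402) than on the control arrays (0.299 and 0.333), and mdx replicate B had 434 probes lower by at least 0.69 against 130 higher, whereas mdx replicate A had 217 lower and 281 higher. The duplicate spots correlated with r of 0.506 to 0.801 on the 4 arrays. Both strains were fitted with limma together with the other steps, which gave median standard errors of 0.19 for a strain (n = 2 arrays), 0.13 for the mean of both strains (n = 4 arrays) and 0.27 for mdx minus control. The p-values measure the spread between single animals and their arrays, pooled over the 18 steps of both strains, and the number of arrays limits the precision. A probe's standard error was thus the same in mdx and control mice, although the mdx arrays of this step spread more widely. Each animal is on 2 arrays, so the steps are not fully independent. Fitted with the 4 arrays alone, 4 probes passed in mdx and 0 in control mice.

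Dystrophin itself was read by a probe at the 3' end of Dmd, with -0.40 and -0.03 on mdx arrays A and B and -0.38 and -0.41 on control arrays A and B. A probe in the first exon of Dp260, a shorter isoform, gave 0.33, 0.51, 0.09 and -0.01 in the same order. Neither probe passed the test in any comparison. Each array carried 1 strain, so the ratios say nothing of the level of Dmd in mdx against control mice and do not check the strain labels. Among the markers of the muscle fibre, Ckm was below 0 on all 4 arrays (-1.45, -1.93, -0.76 and -0.67), whereas Acta1, the skeletal actin, gave -0.83, 0.26, -0.04 and 0.12 and Tnnt3, the fast troponin T, gave -0.34, -0.11, 0.09 and 0.00. Gapdh, the mean of 80 positions, was at -0.80 on mdx array A and between -0.11 and 0.03 on the other arrays.

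In the mean of both strains 35 of 6754 probes passed (0.518%, adjusted p under 0.05 from limma, 954 at an unadjusted p under 0.05), of which 24 were lower and 11 higher, and 33 of the 35 had 1 direction on all 4 arrays. This balance depended on single arrays: without control replicate A 18 were lower and 32 higher, and without control replicate B 5 were lower and 7 higher. Without the dye subtraction 199 were lower and 168 higher. Of all probes, 608 (9.0%) were above 0 and 615 (9.11%) below 0 on all 4 arrays. With at least 0.35 in 1 direction on each of the 4 arrays, 32 probes were lower (0.474%) and 4 were higher (0.0592%). Of the 32, 16 passed in the mean of both strains, 10 in mdx and 1 in control mice. At the edge of this bound lay Sgca, with a smallest value of 0.36 inside it, and Des, with 0.35 rounded, just outside.

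**Figure D1:**
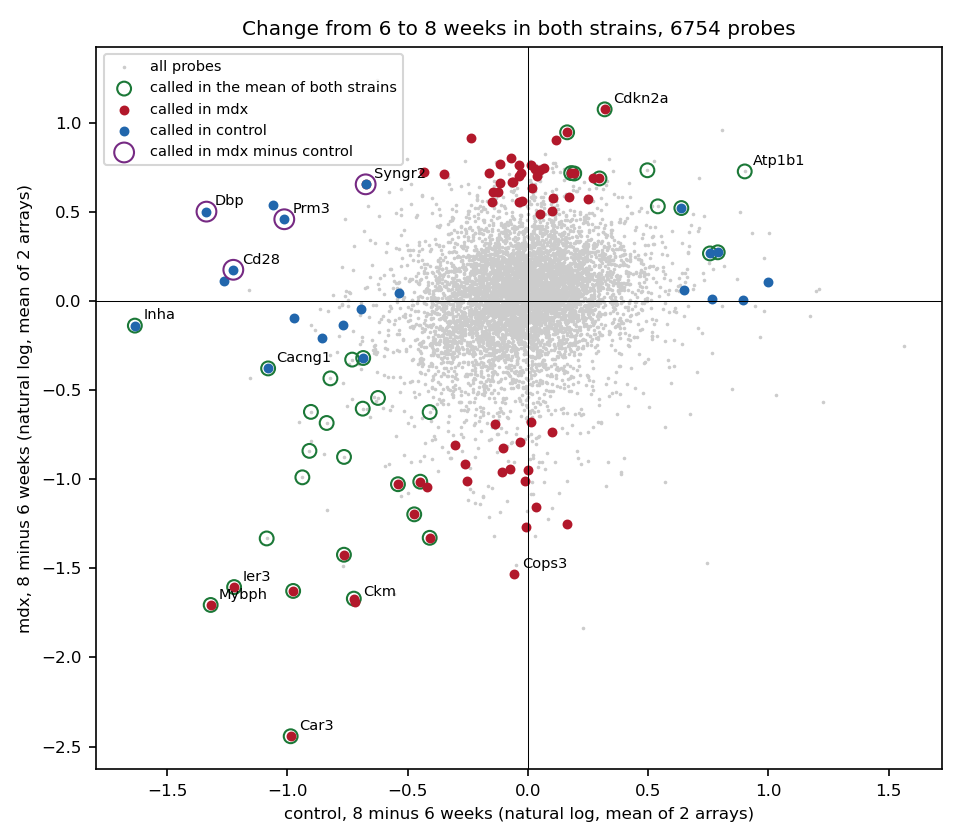
Change from 6 to 8 weeks in control mice (horizontal axis) and in mdx mice (vertical axis), natural log, mean of 2 arrays each, for 6754 probes. Filled points passed in mdx (red) or control mice (blue), green rings in the mean of both strains and purple rings in mdx minus control; most green rings lie at the lower left, and the 4 purple rings lie at the upper left.

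The largest shared decrease was that of Car3, the carbonic anhydrase of slow muscle and fat, with -2.85 and -2.03 in mdx and -1.41 and -0.56 in control mice (mean -1.71 ± 0.38 SE, n = 4 arrays, adjusted p = 0.0389 from limma). Mybph, a myosin-binding protein, gave -1.75 and -1.66 in mdx and -0.93 and -1.71 in control mice (-1.51 ± 0.27, adjusted p = 0.0109). Ier3, an early response gene that acts on cell survival, gave -1.46, -1.75, -1.09 and -1.36 in the same order (-1.41 ± 0.25, adjusted p = 0.0100). Mybph and Ier3 were thus lower by similar amounts in both strains, while Car3 lay lower on both mdx arrays than on either control array, an order that 12.6% of all probes had (both mdx values above both control values in 21.2%). Itm2a, a membrane protein of developing muscle and T cells, gave -1.47, -1.78, -0.83 and -1.12, and Nedd1, which anchors the gamma-tubulin ring, gave -1.74, -0.92, -0.50 and -1.67.

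On the list of fast fibre and glycolysis genes 3 of 36 probes passed in the mean of both strains, all lower, against 0.518% of all probes. Casq1, the calcium store of fast fibres, gave -1.77, -1.57, -0.11 and -1.34 (mean -1.20 ± 0.28, adjusted p = 0.0450 from limma), with control array A close to 0. Actn3, the alpha-actinin of fast fibres, gave -1.12, -0.93, -0.51 and -0.57 (-0.78 ± 0.17, adjusted p = 0.0389). The third was Cacng1, a subunit of the calcium channel of the muscle membrane, which gave -0.36 and -0.39 in mdx and -1.14 and -1.02 in control mice (-0.73 ± 0.11, adjusted p = 0.00517). Among the called genes outside this list, Pdlim3, a Z-line protein that binds alpha-actinin, gave -1.24, -1.60, -0.62 and -0.91 (-1.09 ± 0.25, adjusted p = 0.0426). Cacnb1, another subunit of the same channel, gave -0.93, -0.75, -0.43 and -1.39 (-0.87 ± 0.20). Sypl2, a protein of the triad where this channel meets the calcium store, gave -0.47, -0.18, -0.73 and -0.74, and Pacsin3, a membrane-bending protein, gave -0.60, -0.60, -0.55 and -0.82. Ldb3, a Z-line protein, was lower on all 4 arrays (-0.86, -1.49, -0.61 and -1.06) and stayed at an adjusted p of 0.0504 in the mean, as did Ckm, the muscle creatine kinase. The other genes that fell in the mean of both strains were G3bp2, Pde6d, Cd55b, Gapdhs, Fmo2, Cenpb, Nptn, Rtn2, Eef2, Ube2l3, Hmgb3 and Inha, with means between -0.96 and -0.50, and of these Inha was not below 0 on mdx array B (0.04). Eef2, the elongation factor of translation, fell at 1 of its 3 probes, and the other probes were also below 0 on all 4 arrays. Of the genes of both paragraphs, Cacng1 kept an adjusted p under 0.05 when any 1 of the 4 arrays was left out, and Ier3 lost it only without control replicate B (0.0927). Of the 24 decreases, 4 kept it without mdx replicate A (0.0325 to 0.209), 8 without mdx replicate B (0.0232 to 0.246), 10 without control replicate A (0.0184 to 0.147) and 1 without control replicate B (0.0241 to 0.387).

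**Figure D2:**
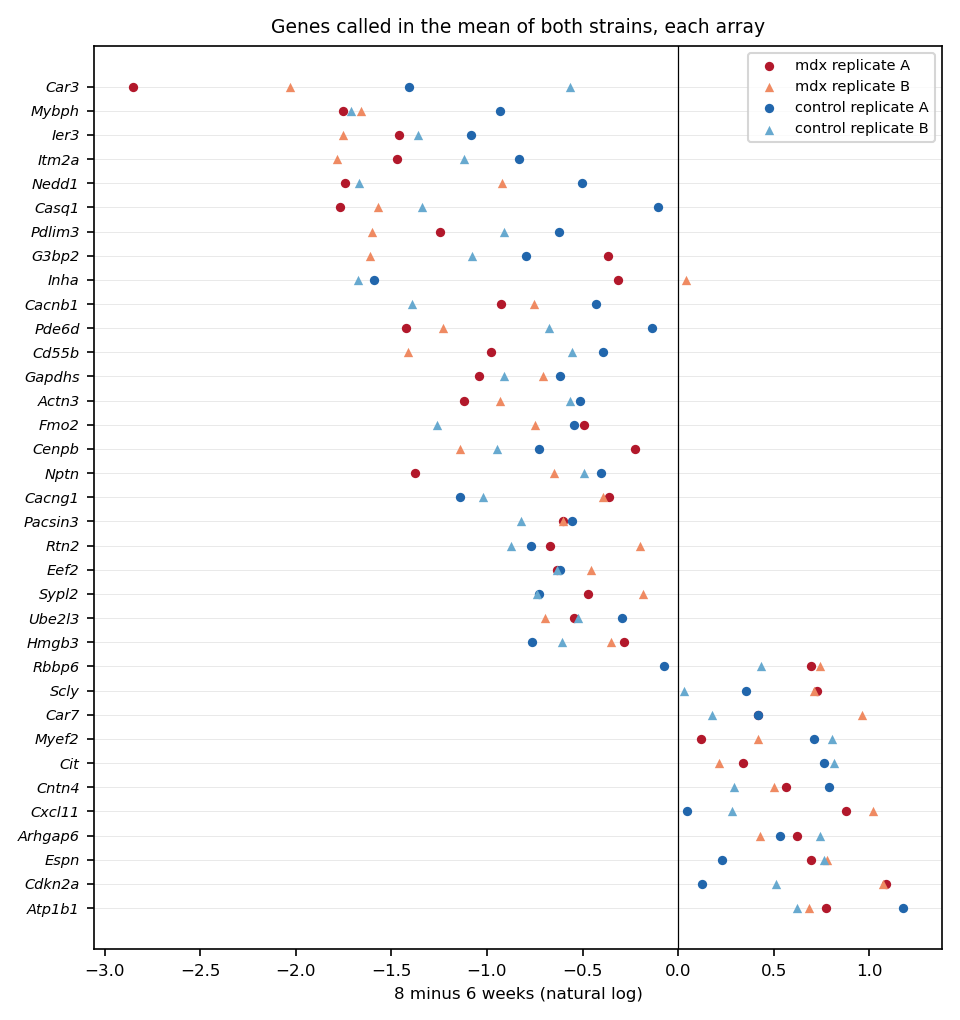
Natural log change from 6 to 8 weeks (horizontal axis) on each of the 4 arrays for the 35 genes that passed in the mean of both strains, 24 lower and 11 higher. Red and orange symbols are mdx replicates A and B and blue symbols the control replicates; Inha and Rbbp6 are the genes with 1 array on the other side of 0.

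Letters of binding motifs were read in the 250 bases before the start of the genes that passed in both strains together (RefSeq, build GRCm38.p6). The motif CAGCTG is an E-box of the kind bound by myogenic factors. The second pattern, CTA and TAG with any 4 bases between them, is looser than the motif of the Mef2 factors and is called the Mef2 core here. Both read the same on both strands. CAGCTG stood in 8 of 26 promoters (30.8%) of 20 of the 24 genes that were lower, in 5 of 18 (27.8%) of 10 of the 11 genes that were higher, and in 4271 of all 32851 promoters of this length (13%). The Mef2 core stood in 4 of 26 (15.4%), 0 of 18 (0.0%) and 3.2%, respectively. A match is a description of the letters only. A match to the Mef2 core need not be a Mef2 site, whose 4 middle bases are A or T. The Mef2 core stretches marked below hold G or C there. CAGCTG stood before 8 of the lower genes, Casq1, Eef2, Hmgb3, Ier3, Mybph, Pacsin3, Pdlim3 and Sypl2. The Mef2 core stood before 4 of the lower genes, Ier3, Inha, Pacsin3 and Ube2l3. The promoters of 4 genes picked from the 8, each lower on all 4 arrays, are shown 5' to 3' on the + strand, with both motifs in capitals. They lie at chr1:134193198-134193447 (Mybph, CAGCTG starting 79 bases before the gene), chr8:45885237-45885486 (Pdlim3, 139 bases), chr17:35821463-35821712 (Ier3, 106 bases, and the Mef2 core at 59) and chr2:91257079-91257328 (Pacsin3, 196 and 22 bases, and the Mef2 core at 62).
Mybph: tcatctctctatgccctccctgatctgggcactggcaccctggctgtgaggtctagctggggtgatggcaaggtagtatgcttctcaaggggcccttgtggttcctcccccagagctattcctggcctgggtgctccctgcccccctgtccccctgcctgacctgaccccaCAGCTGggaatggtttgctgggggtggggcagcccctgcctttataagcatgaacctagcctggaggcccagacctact
Pdlim3: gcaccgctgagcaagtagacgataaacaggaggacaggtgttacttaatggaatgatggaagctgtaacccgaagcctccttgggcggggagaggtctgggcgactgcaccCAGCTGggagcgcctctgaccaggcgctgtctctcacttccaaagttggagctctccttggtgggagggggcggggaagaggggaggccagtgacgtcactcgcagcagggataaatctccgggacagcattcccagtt
Ier3: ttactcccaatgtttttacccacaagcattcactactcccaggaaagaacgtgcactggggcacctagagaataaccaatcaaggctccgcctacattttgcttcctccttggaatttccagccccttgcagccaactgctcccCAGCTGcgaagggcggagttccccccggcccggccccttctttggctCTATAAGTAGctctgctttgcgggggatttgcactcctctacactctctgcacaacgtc
Pacsin3: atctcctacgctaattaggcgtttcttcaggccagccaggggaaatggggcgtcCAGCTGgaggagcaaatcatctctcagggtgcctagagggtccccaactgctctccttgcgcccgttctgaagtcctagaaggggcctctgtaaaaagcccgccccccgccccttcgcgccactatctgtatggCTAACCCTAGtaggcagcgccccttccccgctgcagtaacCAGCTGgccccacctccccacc

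Fewer genes passed as higher in the mean of both strains. Atp1b1, a subunit of the sodium pump, gave 0.78 and 0.68 in mdx and 1.18 and 0.62 in control mice (mean 0.82 ± 0.18 SE, n = 4 arrays, adjusted p = 0.0389 from limma). Cdkn2a, the locus of the cell cycle inhibitors p16 and p19, gave 1.09 and 1.07 in mdx and 0.12 and 0.51 in control mice (0.70 ± 0.12, adjusted p = 0.0100), so the control arrays lay below both mdx arrays. Arhgap6 gave 0.62, 0.43, 0.53 and 0.74 (0.58 ± 0.10, adjusted p = 0.0100), with the strains overlapping. Also called were Espn, which bundles actin, Cntn4, Cxcl11, Cit, Myef2, Car7, Scly and Rbbp6, with means between 0.45 and 0.62. A call in the mean does not place a change in each strain. Cxcl11 gave 0.88 and 1.02 in mdx against 0.04 and 0.28 in control mice. Cit gave 0.34 and 0.21 in mdx against 0.77 and 0.81 in control mice. Rbbp6 was at -0.07 on control array A. Il15, a cytokine made by muscle, was higher on all 4 arrays at 1 probe (1.399, 0.53, 1.07 and 0.54, adjusted p = 0.183 in the mean), but a second Il15 probe gave 0.59, 0.63, -0.13 and -0.36. Of the 11 increases, 2 kept an adjusted p under 0.05 without mdx replicate A (0.0437 to 0.138), 2 without mdx replicate B (0.0232 to 0.251), 4 without control replicate A (0.0183 to 0.207) and 0 without control replicate B (0.0538 to 0.411). With each array scaled to the same spread, 4 of the 35 probes passed, 2 higher and 2 lower, and with each probe's own variance 3 did.

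The neighbouring arrays, which share an animal with those of this step, mostly had the opposite sign for these genes. From 4 to 6 weeks Car3 gave 1.497 and -0.03 in mdx and 1.44 and 0.35 in control mice, and from 8 to 10 weeks 1.63, 0.66, 1.66 and -0.24. Mybph gave 1.43, 0.62, 0.70 and 0.26 from 4 to 6 weeks and -0.61, 0.82, 1.02 and -0.08 from 8 to 10 weeks. For Ier3 the same arrays gave 1.38, 0.10, 1.10 and 0.10, then -0.22, 0.90, 1.07 and 0.43. Atp1b1, in turn, was below 0 on all 8 of these arrays (-0.58 to -0.43 in mdx and -0.51 and -0.50 in control mice from 4 to 6 weeks, -0.34 and -0.03, then -1.30 and -0.47 from 8 to 10 weeks). Since each 6-week and each 8-week animal is on 2 arrays, these values are not independent of those of the step. A shared animal enters the neighbouring ratio with the opposite sign. Genes picked for large values in this step therefore lean to the opposite sign next to it, and a course over age is not shown. The same holds for the neighbouring steps given below.

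In mdx mice 64 probes passed (0.948%, 818 at an unadjusted p under 0.05), 36 higher and 28 lower. The 10 largest changes were all decreases: Car3, Mybph, Ckm, Casq1, Itm2a, Ier3, Cops3, Pdlim3, Pde6d and G3bp1. The sizes of the other changes were smaller, and 45 of the 64 were under 1. Ckm fell by 1.69 ± 0.40 in mdx mice (n = 2 arrays, adjusted p = 0.0478 from limma). Cops3, a subunit of the COP9 signalosome, gave -1.25 and -1.81 in mdx and 0.14 and -0.25 in control mice (-1.53 ± 0.33, adjusted p = 0.0445). G3bp1, a stress granule protein, gave -1.49 and -1.04 against -0.02 and 0.00 (-1.26 ± 0.31, adjusted p = 0.0498), and was in this respect unlike its relative G3bp2, which gave -0.37, -1.61, -0.80 and -1.08. Trf, transferrin, the carrier of iron, gave -1.38 and -0.93 against 0.18 and -0.11 (-1.15 ± 0.19, adjusted p = 0.0125). Of its 4 probes, 3 were below 0 on both mdx arrays, and the remaining probe gave -0.01 and 0.05. From 4 to 6 weeks the probe that passed had given 1.03 and 1.03 in mdx mice. Of the 28 decreases (0.415% of all probes), 17 were also below 0 on both control arrays. In the control mean 23 were below 0, as were 3619 of all 6754 probes. Among all probes below 0 on both mdx arrays, 615 were below 0 on both control arrays and 194 on neither. A further 185 were below 0 on control array A alone and 368 on control array B alone.

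The largest of the 36 increases in mdx mice was that of Cdkn2a (1.08 ± 0.17, adjusted p = 0.0100 from limma, n = 2 arrays). Cxcl11, a chemokine that attracts T cells, gave 0.88 and 1.02 in mdx and 0.04 and 0.28 in control mice (0.95 ± 0.18, adjusted p = 0.0439). Cux1, a homeobox repressor, gave 1.05 and 0.79 against -0.44 and -0.04 (0.92 ± 0.18). Itga6, the integrin alpha6 of the laminin receptor, gave 0.97 and 0.84 against 0.06 and 0.18 (0.91 ± 0.18). Cd48, a surface protein of leukocytes, gave 0.80 and 0.80 against -0.08 and -0.05 (0.80 ± 0.19, adjusted p = 0.0478). For each of these 5 genes, named for their high mdx values, both mdx values lay above both control values, as in 21.2% of all probes. Among the smaller increases, Numb, the inhibitor of Notch, gave 0.62 and 0.61 against -0.17 and -0.12 (0.61 ± 0.14, adjusted p = 0.0445 from limma). The paper reports that Numb was not detected in control mice, so its control values may be ratios of background. Ccnd1, the cyclin of G1 phase, gave 0.46 and 0.65 against -0.06 and -0.01. Calls of similar size included Olfr52 (0.59 and 0.76 in mdx mice), Opn1sw (0.53 and 0.49), Zp2 (0.51 and 0.60) and Slc6a3 (0.80 and 0.67). The genes named here are thus a part of the 36. Pdgfra, a receptor of fibroblast and adipocyte precursors, gave 0.75, 0.68, -0.65 and -0.04 at the probe that passed, but -0.12, -0.54, -0.55 and -0.41 at a second probe. Of the 36 increases (0.533% of all probes), 18 had a control mean above 0, against 46.4% of all probes above 0 in control and 56.6% in mdx mice.

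With 1 mdx array left out, the remaining array was a single value whose spread was taken from the other steps, so a call may be lost with a change of the same size. Without mdx replicate A, 0 of the 64 kept an adjusted p under 0.05 (0.102 to 0.424 for the increases and 0.116 to 0.788 for the decreases), and without mdx replicate B 4 decreases did, those of Arnt2, Pnpla2, Stx5a and Trf (0.0015, 0.0105, 0.0105 and 0.0197 from limma, for changes on mdx array A of -1.55, -1.87, -1.36 and -1.38). Without control replicate A or control replicate B 7 of the 64 remained. With each array centred on its median, which moves the mdx arrays by 0.05 and 0.04, 12 probes were higher and 39 lower, and with each array scaled to the same spread or with the second spot alone 0 probes passed.

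By the bounds of at least 0.69 on both mdx arrays and less than 0.35 on both control arrays, 16 probes were higher (0.237%) and 18 lower (0.267%) in mdx mice only. Of these, 7 of the 16 and 7 of the 18 passed in mdx, and 0 passed in mdx minus control, so the count describes these arrays and the difference between the strains is not shown for any of them. Besides Cxcl11, Itga6 and Cd48, the higher group held Pafah1b3, Ebf3, Tcte1 and Nr4a2 with a call and Dtna, alpha-dystrobrevin, which gave 0.73 and 0.78 against 0.28 and -0.18 (adjusted p = 0.0551 in mdx from limma). The lower group held Trf at 2 probes, of which 1 passed, and with a call Cops3, G3bp1, Tcp1, Nrd1, Ptdss1 and Kcna6, and without a call Cav1, the caveolin of endothelium and fat, with -1.11 and -0.92 against 0.16 and -0.13. Ryr1, the calcium release channel, was in this group at the edge of the bound (0.69 inside, against 0.68 for Pkp1 outside). Its probes disagreed: 1 gave -0.69 and -1.47 in mdx mice, the others 0.26 and 0.10, and 0.36 and 0.11. With each array centred on its median the counts were 8 higher and 21 lower, and with each array scaled to the same spread 1 and 7.

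In control mice 21 probes passed (0.311%, 600 at an unadjusted p under 0.05), 7 higher (0.104%) and 14 lower (0.207%). Without control replicate A 18 were higher and 7 lower, and with the second spot alone 17 were higher and 9 lower. Inha, the alpha subunit of inhibin, had the largest change, with -1.59 and -1.68 in control and -0.32 and 0.04 in mdx mice (-1.63 ± 0.23, n = 2 arrays, adjusted p = 0.0012 from limma). Dbp, a transcription factor of the circadian clock, gave -1.499 and -1.18 against 0.46 and 0.55 (-1.34 ± 0.23, adjusted p = 0.00508). Slc15a2, a peptide transporter, gave -1.10 and -1.43 against 0.08 and 0.15 (-1.26 ± 0.26, adjusted p = 0.0377 from limma). The duplicate spots of Slc15a2 disagreed, with an adjusted p of 0.998 from limma for the first spot alone and 2.83e-05 for the second alone. For these 3 genes, named for their large control changes, both control values lay below both mdx values, as in 21.2% of all probes. Cd28, the costimulatory receptor of T cells, fell by 1.23 ± 0.19, Cacng1 by 1.08 ± 0.16, Ing1, a chromatin reader, by 1.06 ± 0.23 and Prm3, a protamine-like gene of the testis, by 1.01 ± 0.17. The increases were those of Prss8 and Stc1 (1.00 and 0.89), Cit, the citron kinase of cell division (0.77 and 0.81 in control, 0.34 and 0.21 in mdx mice, 0.79 ± 0.15), Lpin1, a phosphatidate phosphatase (0.67 and 0.86 against -0.14 and 0.17), Myef2, Cd8a at 1 of its 2 probes, and Arhgap6. Of the control calls, 10 of 21 had both mdx arrays within 0.35 of 0, for which no share over all probes was counted. All 7 of the genes higher in control mice had an mdx mean above 0, as had 56.6% of all probes. Of the 14 lower, 7 had an mdx mean below 0, as had 2931 of all 6754 probes. Inha and Cacng1 kept their call without either control array. Of the 14 decreases 5 kept it without control replicate A (0.00307 to 0.316) and 4 without control replicate B (0.00211 to 0.9997), and of the 7 increases 3 without control replicate A (0.00107 to 0.157) and 0 without control replicate B (0.285 to 0.9997). With each array centred on its median 7 were higher and 8 lower. A filter on duplicate spots that differ by over 1 left 7 of the 14 decreases and 4 of the 7 increases, of which 3 and 1 passed. Cd28, Prm3, Ing1 and Slc15a2 were among the genes it left out.

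By the same bounds 1 probe, that of Cit, was higher in control mice only (0.0148%) and 7 were lower (0.104%). The latter were Inha, Slc15a2, Iigp1, an interferon-induced GTPase (-0.81 and -0.71 in control, 0.08 and 0.04 in mdx mice), Timm17b, Neb, Abcc9 and Nat3. Nat3 lay at the edge of the bound (0.70, against 0.68 for Btnl10 outside it). Neb, nebulin, gave -1.44 and -0.88 in control mice at this probe, and between -0.65 and -0.03 at its other 3 probes. With centring the counts were 3 higher and 4 lower. After the filter on duplicate spots, which left out Slc15a2, they were 1 higher and 4 lower.

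**Figure D3:**
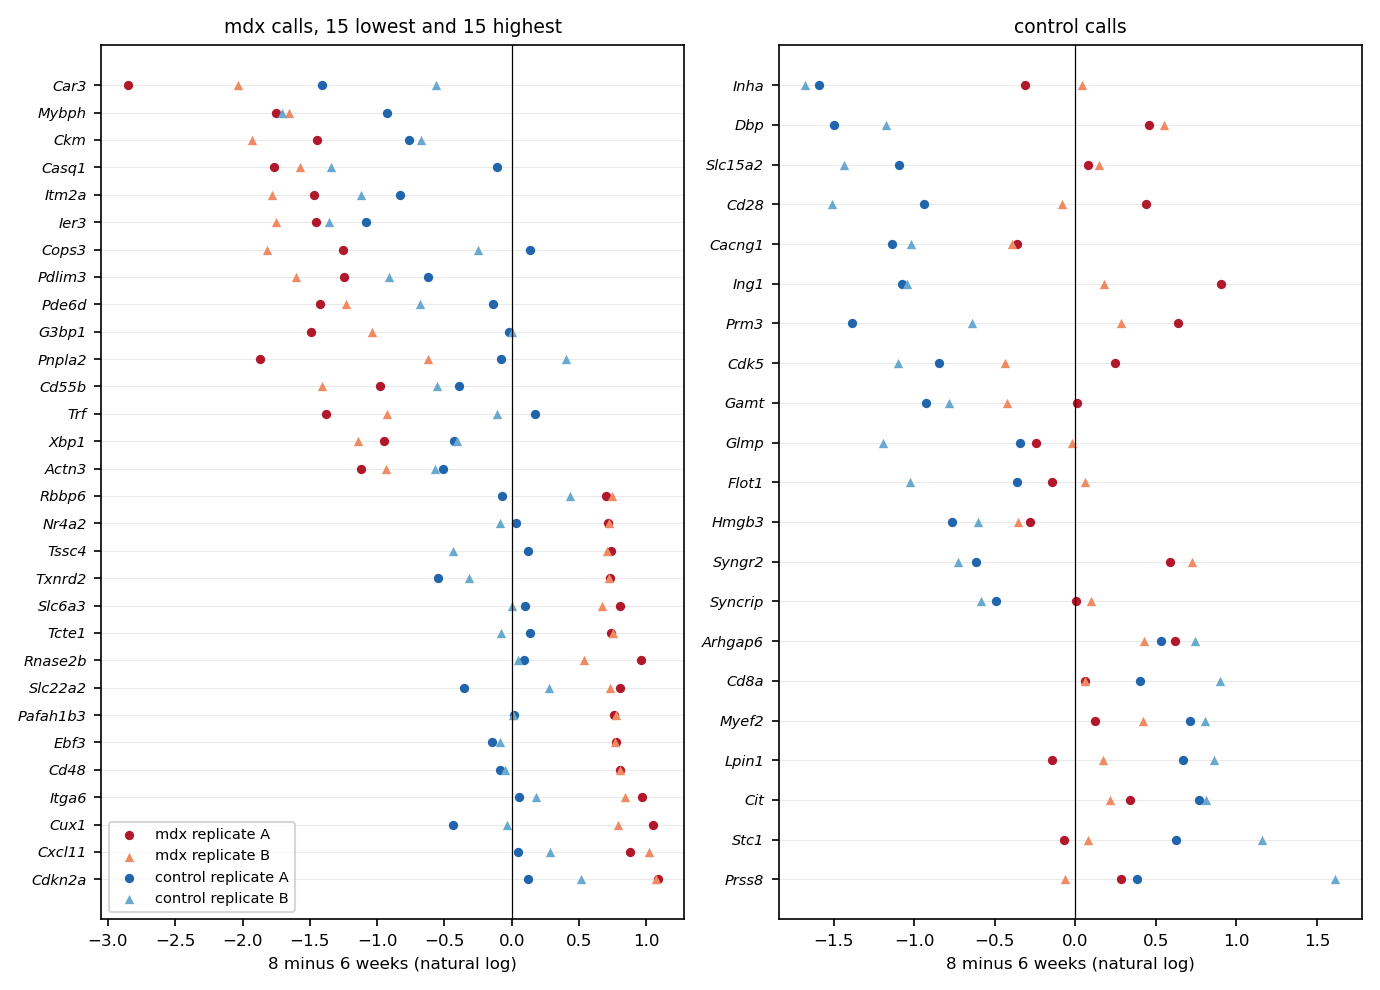
Natural log change from 6 to 8 weeks (horizontal axis) on each array for the 15 lowest and 15 highest genes that passed in mdx mice (left) and the 21 that passed in control mice (right). Red and orange are the mdx replicates and blue the control replicates. Of the 15 lowest mdx genes 11 have both control arrays below 0 and 4 have control arrays on opposite sides of 0. Of the 15 highest mdx genes 5 have both control arrays above 0, 4 both below 0 and 6 on opposite sides of 0.

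The difference between the strains in this step, tested itself, passed for 4 probes (0.0592%, 531 at an unadjusted p under 0.05), all higher in mdx than in control mice. Dbp differed by 1.84 ± 0.32 (mdx 0.46 and 0.55, control -1.499 and -1.18, adjusted p = 0.0126 from limma). Prm3 differed by 1.47 ± 0.23 (0.64 and 0.28 against -1.38 and -0.64, adjusted p = 0.00491). Cd28 differed by 1.402 ± 0.27 (0.44 and -0.08 against -0.94 and -1.51, adjusted p = 0.0355). Syngr2, a synaptogyrin of membrane traffic, differed by 1.33 ± 0.21 (0.59 and 0.72 against -0.62 and -0.73, adjusted p = 0.00491), and was the 1 probe called in mdx and in control mice, in opposite directions. As the test chose genes that differ, both mdx values lay above both control values for all 4, as they did for 21.2% of all probes. Prm3 and Cd28 had duplicate spots that differed by over 1 on at least 1 of the 4 arrays. A filter on such spots left 2 of the 4 genes, Dbp and Syngr2, and both passed. With the second spot alone 2 of the 4 passed. The channels of the strains were opposite, 8 weeks in channel 1 in mdx and 6 weeks in control mice, so a dye effect left after the subtraction would add to this difference and cancel in the mean of the strains. Without the subtraction 858 probes passed. With 1 dye value for both strains the same 4 did, but that setting leaves this difference unchanged by construction. It is therefore no check on a dye effect left over. Without mdx replicate A 0 of the 4 passed (0.0765 to 0.360). Dbp was at 0.0823 without mdx replicate B and 0.120 without control replicate A, Prm3 at 0.120 without control replicate A, and Cd28 at 0.257 without control replicate B.

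**Figure D4:**
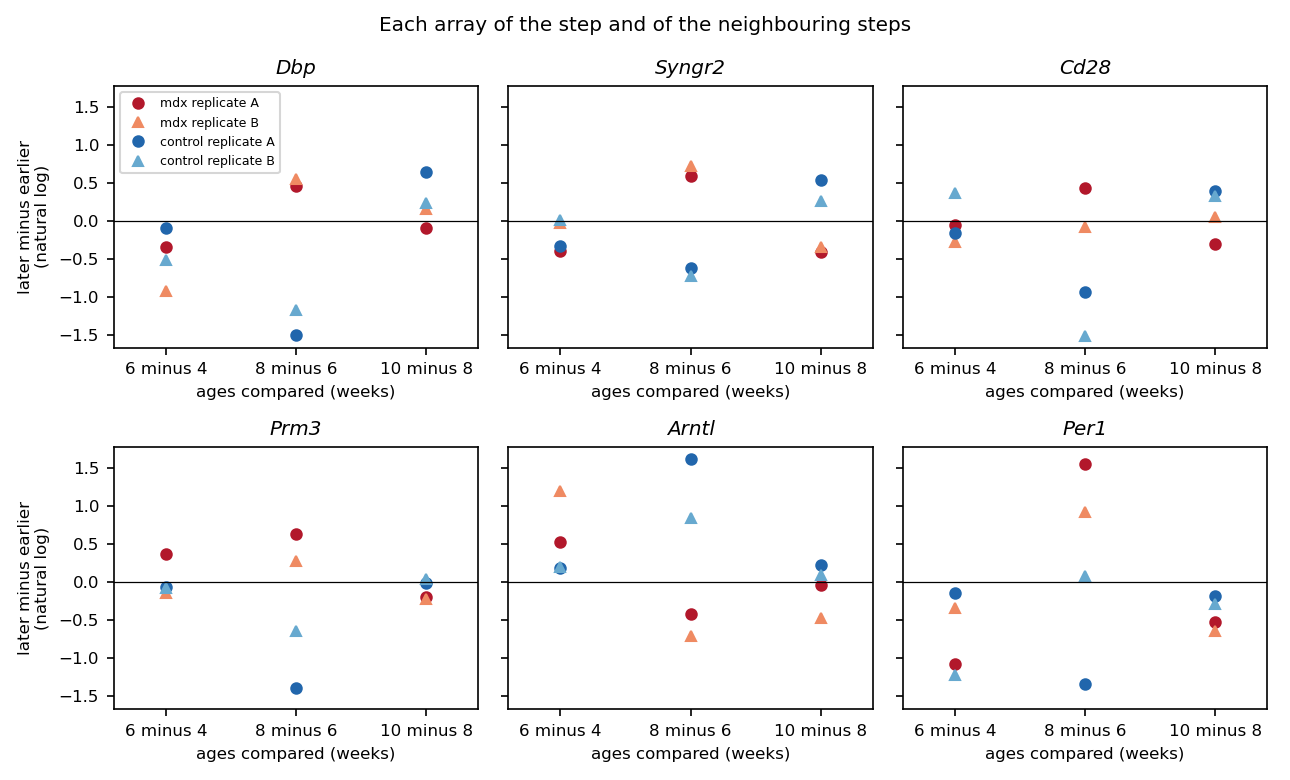
Natural log change, later minus earlier age (vertical axis), on each array of the steps 4 to 6, 6 to 8 and 8 to 10 weeks (horizontal axis) for the 4 genes that passed in mdx minus control and for the clock genes Arntl and Per1. Red and orange are the mdx replicates and blue the control replicates. At 8 minus 6 weeks the mdx and control values do not overlap for any of the 6 genes, which were picked for their difference between the strains. Of all probes, 21.2% had both mdx values above both control values and 12.6% had both below.

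The list of clock genes had 18 probes, of which 1 (Dbp) passed in control mice and in mdx minus control and 0 in mdx mice. The medians were -0.02 in mdx and -0.15 in control mice, against 0.04 and -0.02 over all probes. Arntl, Per1, Per2 and Nfil3, named for having the largest differences between the strains on the list besides Dbp, did not pass. Arntl, the activator of the clock, gave -0.42 and -0.71 in mdx and 1.62 and 0.84 in control mice, the reverse of Dbp, which it is known to activate. Per1, a repressor of the clock, gave 1.56 and 0.93 in mdx and -1.34 and 0.08 in control mice, and Per2 gave 1.00 and 0.34 against -0.32 and 0.11. Nfil3, which binds the same sites as Dbp and represses them, gave -0.20, -0.28, 0.62 and 0.66 at 1 probe and 0.08, -0.12, -0.03 and 0.23 at another. Nr1d1, Cry1, Cry2, Per3 and Tef lay between -0.38 and 0.34 on all 4 arrays. The hour at which the muscles were taken is not given in the sources used here, and its part in these values was not tested. Dbp in control mice had been at -0.10 and -0.52 from 4 to 6 weeks and was at 0.64 and 0.23 from 8 to 10 weeks, and in mdx mice it was at -0.35 and -0.92, then -0.10 and 0.16.

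The list of macrophage and myeloid genes had 56 probes, with a median of 0.46 on mdx array A, -0.62 on mdx array B, 0.00 on control array A and 0.01 on control array B. On mdx array A 44 of the 56 were above 0, on mdx array B 11, and 39 were above 0 on A and below 0 on B. Clec7a, the beta-glucan receptor of macrophages, gave 1.60 and -4.05 in mdx mice and 0.26 and -0.09 in control mice, S100a9, of neutrophils and monocytes, 2.37 and -0.92, and Lyz1, lysozyme, 0.69 and -1.73. Mpeg1, Lgals3, Ctsk and Itgb2 likewise lay between 0.37 and 0.86 on A and between -1.95 and -1.38 on B. The list's mean of both mdx arrays was therefore near 0 (median -0.06), and 1 of its genes, Cd48, passed, with 0.80 on both arrays. On the neighbouring mdx arrays the median of the list was 0.28 and 0.83 from 4 to 6 weeks and -0.80 and -0.02 from 8 to 10 weeks. The lists of interferon response (26 probes, medians 0.32 and -0.39 in mdx) and of extracellular matrix and fibroblast genes (78 probes, 0.26 and -0.33) were split the same way. The lymphocyte list was not (39 probes, 0.18 and 0.05). The list of chemokines and cytokines (58 probes) had medians of 0.27 and 0.00. Of its probes 38 had opposite signs on the mdx arrays, and 25 were above 0 on A and below 0 on B. Of all 6754 probes, 3248 and 1641 did so. The macrophage markers thus lay on opposite sides of 0 on the mdx arrays, and their part in the other mdx values was not tested.

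**Figure D5:**
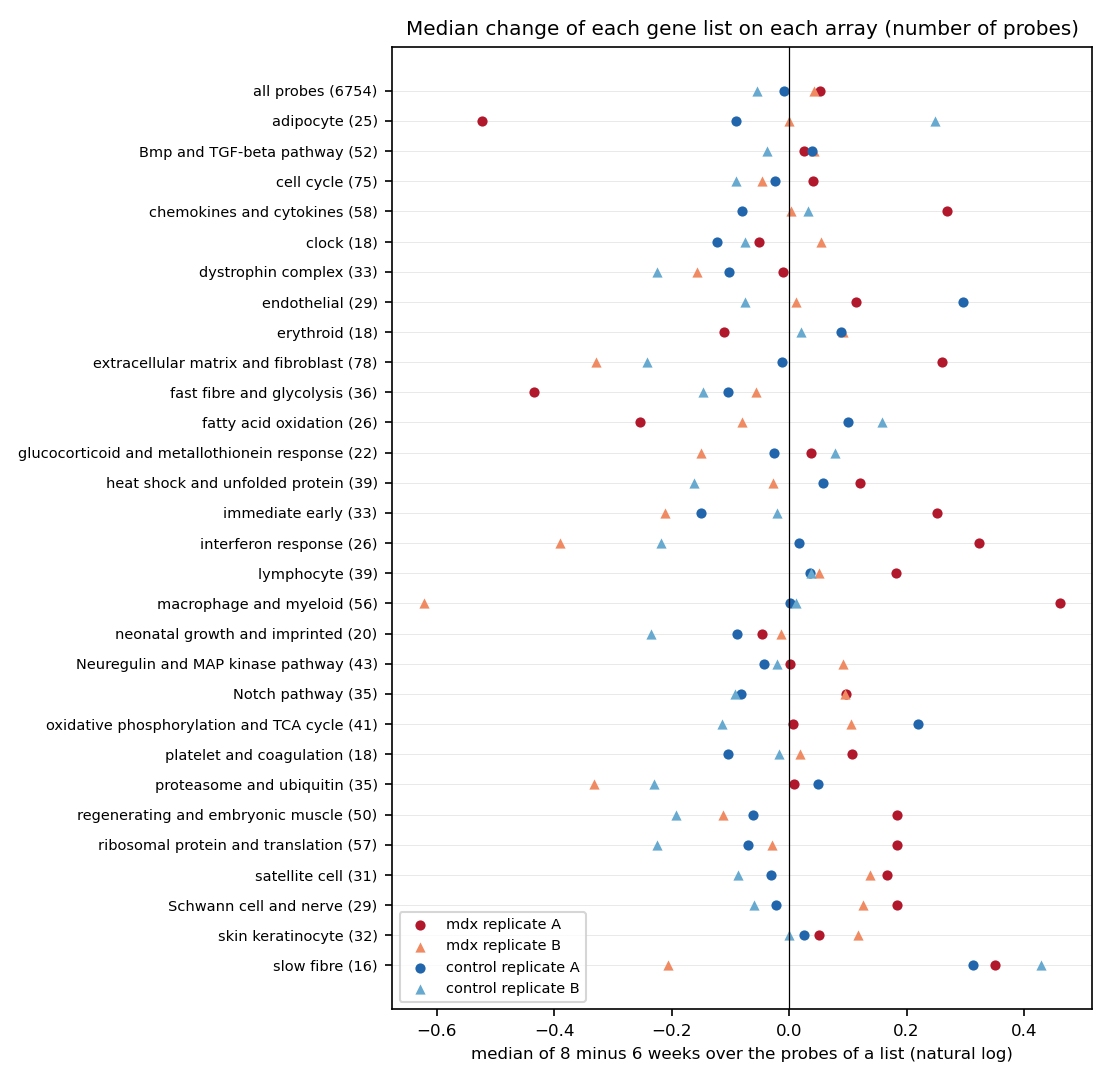
Median natural log change from 6 to 8 weeks (horizontal axis) over the probes of each gene list on each array, with all 6754 probes on top and the number of probes in parentheses. The macrophage list lies at 0.46 and -0.62 on the mdx arrays and at 0.00 and 0.01 on the control arrays, and the slow fibre list is below 0 only on mdx array B.

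The genes of slow fibres were split in mdx mice too, but not in control mice. Over 16 probes the medians were 0.35 and -0.21 on the mdx arrays and 0.31 and 0.43 on the control arrays, where 12 of 16 had a mean above 0 (46.4% over all probes), and 0 passed in any comparison. Csrp3, the muscle LIM protein, gave 0.75 and -1.26 in mdx and 1.69 and 1.43 in control mice. Tnnt1, the slow troponin T, gave 1.31, -1.18, 1.04 and 1.38, and Myoz2, calsarcin of slow fibres, gave 0.92, -0.80, 1.24 and 1.16. These were among the largest values on the control arrays, yet their spread over the series was wide. From 4 to 6 weeks Csrp3 gave -1.51 and -0.52 in control mice and from 8 to 10 weeks -1.36 and -1.18. The list of fast fibre and glycolysis genes, with 36 probes, had medians of -0.24 in mdx and -0.14 in control mice, and its called decreases were those of Ckm, Casq1, Actn3 and Cacng1. In mdx mice 3 of the 36 fell (0.415% of all probes) and in control mice 1 (0.207%), and 11 were below 0 on all 4 arrays (9.11%). Eno3, the muscle enolase, gave -1.28, -1.69, -0.33 and -1.21 at 1 probe (adjusted p = 0.0984 in mdx mice from limma) and -0.82, 0.01, 0.12 and -0.18 at another. Its contractile genes Tnni2 and Tnnc2 were below 0 on mdx array A (-0.51 and -0.39) and above 0 on mdx array B (0.19 and 0.07).

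In the means of the strains, most genes of fatty acid oxidation lay below 0 in mdx and above 0 in control mice. The medians on the single arrays were -0.25 and -0.08 in mdx and 0.10 and 0.16 in control mice. On these arrays 7 and 11, then 17 and 20, of the 26 probes were above 0. Of 26 probes, 6 were above 0 in mdx (median -0.20) and 23 in control mice (median 0.18), against 56.6% and 46.4% of all probes, and 0 passed in any comparison. Lpl, the lipase that takes up fat from blood, gave -1.03 and -0.77 in mdx and 0.39 and 0.28 in control mice. Cd36, a fatty acid transporter, gave -0.48, -0.71, 0.50 and 0.51, and Slc25a20, the carnitine carrier of mitochondria, gave -0.47, -0.39, 0.54 and 0.12. These 3 were picked from the 26 for their values, and both mdx values lay below both control values in them, as in 12.6% of all probes. Without the dye subtraction the control median of the list was -0.06. The markers of fat cells also varied between the arrays. Over 25 probes the adipocyte list had medians of -0.52 and 0.00 on the mdx arrays and -0.09 and 0.25 on the control arrays, and 9 of 25 were above 0 in mdx and 15 in control mice. Cidea and Ucp1, of brown fat, gave -2.53 and -1.93 on mdx array A and 1.54 and 1.46 on control array B, and Adipoq, adiponectin, gave -1.52, -0.18, -0.39 and 0.55. The amount of fat in each sample was not given in the sources used here, and its part in the values of Car3, Lpl and Cd36 was not tested. Genes of the ribosome (57 probes) were above 0 at 34 probes in mdx and 5 in control mice, with medians of 0.07 and -0.15 and 0 calls in either strain. Genes of the proteasome and ubiquitin (35 probes) were above 0 at 7 probes in mdx and 8 in control mice, and Ube2l3, a ubiquitin-conjugating enzyme, passed in the mean of both strains (-0.52 ± 0.11).

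Most of the study's regeneration genes lay above 0 in mdx mice, by small amounts. In its clusters 1, 2 and 4, formed from the profiles of mdx over control mice, 75 of 83 probes were above 0 in mdx (median 0.30) and 29 of 83 in control mice (median -0.08), against 56.6% and 46.4% of all probes. Over all 6 clusters, 101 of 151 probes were above 0 in mdx (median 0.12, 6 called) and 62 in control mice (median -0.07, 0 called), and clusters 3, 5 and 6 had mdx medians of -0.12, -0.12 and -0.11. The study chose these genes on the same arrays, so their direction is not independent evidence. Of the 83, 5 passed in mdx mice (Numb, Inhbe, Ptgir, Nelfcd and Lhx4, between 0.58 and 0.71), 0 in control mice and 0 in mdx minus control, and the mdx medians on arrays A and B were 0.31 and 0.31. Cluster 2 had an mdx median of 0.47 over 36 probes. In it were Hoxa11, a homeobox gene (0.65 and 0.63 in mdx, -0.12 and -0.29 in control mice), Stat4, a signal transducer (0.43 and 0.69 against 0.03 and -0.02) and Vcam1, an adhesion molecule also found on satellite cells (0.41 and 0.56 against -0.03 and -0.03), all without a call. The list of regenerating and embryonic muscle, not taken from the study, had 31 of 50 probes above 0 in mdx and 14 in control mice, with 0 higher and 1 lower (Mybph) called in mdx. Myog, the factor of myoblast differentiation, gave 0.65 and 0.14 in mdx and -0.83 and -0.53 in control mice, Myod1 -0.33, -0.19, -0.31 and -0.49, and Pax7, of satellite cells, 0.17, -0.14, -0.05 and -0.41, none with a call. The satellite cell list of 31 probes had medians of 0.12 and -0.03, with Numb as its 1 call.

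In the Notch pathway, by which neighbouring cells hold each other back from differentiation, 1 of 35 probes passed in mdx, that of Numb, and 0 in control mice, against 0.948% and 0.311% of all probes. The receptor Notch1 gave -0.11 and -0.16 in mdx and -0.13 and -0.47 in control mice, and Notch2 gave 0.35, 0.27, 0.10 and -0.06. The ligand Dll3 gave 0.10, 0.14, -0.22 and 0.17. Of the intracellular Dishevelled proteins, Dvl1 gave 0.28, 0.49, 0.04 and 0.01, Dvl2 -0.52, -0.08, -0.29 and -0.40, and Dvl3 0.18, -0.10, -0.14 and -0.65. In the pathway of Bmp and TGF-beta, 1 of 52 probes rose in mdx mice (Inhbe, an activin chain, with 0.87 and 0.54 against 0.28 and -0.20, 0.71 ± 0.17, adjusted p = 0.0498 from limma) and 1 fell in control mice (Inha), where 0.533% and 0.207% of all probes did. The ligand Bmp15 gave 0.80 and 0.04 in mdx and -0.20 and 0.13 in control mice, and Inhbc gave 0.47, 0.33, 0.02 and -0.21. The target Id2, an inhibitor of differentiation, gave 0.70 and -1.35 on the mdx arrays. In the pathway of the neuregulins and MAP kinases 1 of 43 probes fell in mdx mice, that of the kinase Map2k4 (-0.76 and -1.15 against 0.28 and -0.50), where 0.415% of all probes did. The ligand Nrg3 gave 0.67 and 0.88 against -0.03 and 0.04 and lay just outside the threshold (0.78, adjusted p = 0.0506 from limma). The adaptor Grb2 gave 0.34, 0.35, -0.19 and -0.31. The paper reports that Numb, Dll3, Bmp15, Inhbc, Inhbe and Nrg3 were not detected in control mice. The control values of these genes may thus be ratios of background, which was not tested.

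In the dystrophin complex 0 of 33 probes passed in any comparison, and 11 of them were below 0 on all 4 arrays, where 9.11% of all probes were. The medians were -0.07 in mdx and -0.16 in control mice. Sgca, a sarcoglycan of the complex, gave -0.62, -0.50, -0.36 and -0.36, and Sgcd, another sarcoglycan, gave -0.51, -0.22, -0.39 and -0.50. Sntb1, a syntrophin that binds dystrophin, gave -0.67, -0.44, -0.74 and -0.53 (adjusted p = 0.0826 in the mean of both strains from limma). Des, desmin, gave -0.36, -0.75, -0.35 and -0.36. All 4 of these genes were below 0 on every array. Utrn, utrophin, the relative of dystrophin, gave 0.15, 0.17, 0.00 and -0.24, and Dag1, dystroglycan, stayed within 0.16 of 0. In the study's list of costamere genes 14 of 49 probes were below 0 on all 4 arrays and 1, Actn3, passed in mdx mice and in the mean.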

How the data were processed

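Hindlimb muscle RNA of mdx and control mice was hybridised in a loop over age, 18 arrays for each strain. The authors read spots in GenePix Pro 3 and took the local background off the median intensities. A variance stabilizing normalization was run over all arrays at once, and the deposited values are channel 1 over channel 2 ratios on the natural log scale. The channels and the scale were checked against the averaged levels of the study at 8 minus 6 weeks over 815 accessions (slope 1.2 in mdx and 0.989 in control mice). Of 7776 positions, each of 2 spots, 938 without a name were left out, 80 positions of Gapdh and those of 5 repeated accessions were averaged, and 6754 probes remained, 7 of them with several gene symbols, which are not named. Every column was mapped to a sample, and 0 were left over.

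The mean over the 18 arrays of a strain was subtracted from each spot, ratios were turned to the later minus the earlier age and duplicate spots were averaged. limma 3.58.1 in R 4.3.3 was fitted with 1 mean for each of 18 steps of age over 36 arrays (18 residual and 6.667 prior degrees of freedom). Benjamini-Hochberg adjustment ran over all probes and an adjusted p under 0.05 was called. Columns of fold changes or p-values of the authors were not used.

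The comparisons, gene lists, bounds and the rule for named genes (the 10 largest changes called in each comparison, the genes that met the bounds most clearly, up to 6 members of each list and the genes of the study's pathways) were written with earlier results of these data known. The remaining called genes were chosen after their values were seen, as were Adipoq, Btnl10, Cry1, Cry2, Dag1, Lyz1, Mpeg1, Nat3, Nr1d1, Per3, Sgcd, Stat4, Tef, Tnnc2, Tnni2, Utrn and Vcam1. The lists came from general knowledge, apart from the study's costamere and regeneration genes, of which 49 of 52 and 151 of 166 were matched by accession. Lists are described by counts and medians, with no test. Replicates were left out in turn, and the alternatives changed the dye subtraction, centring, scale, spots, filter, variance, threshold and bounds.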

Additional observations from a re-analysis of the deposited data

Results flagged for a closer look

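For 4 genes the change from 6 to 8 weeks differed between the strains in the test of the difference itself, by 1.84 for Dbp, 1.47 for Prm3, 1.402 for Cd28 and 1.33 for Syngr2 (mdx minus control, natural log, 2 arrays of each strain, adjusted p = 0.0126, 0.00491, 0.0355 and 0.00491 from limma). In Dbp, Prm3 and Syngr2 both mdx arrays were above 0 and both control arrays below 0, and in Cd28 mdx replicate B was at -0.08. No other probe of the 6754 passed this test. Prm3 and Cd28 had duplicate spots that differed by over 1 on at least 1 of the 4 arrays.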

How the results depend on the processing

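The directions did not turn in any alternative for any of the 124 calls of single probes, but most calls were lost in some. Of the 124, 122 were kept without the dye subtraction, 119 with 1 dye value for both strains, 124 with age fitted over the whole loop, 93 with each array centred, 26 with each array scaled to the same spread, 31 with the first spot alone, 27 with the second spot alone, 51 with each probe's own variance, 37 with the replicate letter as a block and 9 with the 4 arrays alone. With 1 dye value the difference between the strains is unchanged by construction, so its 4 calls could not be lost there. Among probes left by a filter on spots that differ by over 1, 92 of 99 were kept.

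The 64 probes called in mdx mice became 407 without the dye subtraction, 222 with 1 dye value, 0 with the arrays scaled, 7 with the first spot, 0 with the second spot, 4 with the 4 arrays alone, 101 over the whole loop, 39 with own variances and 2 with a Bonferroni threshold, and 6 to 20 without 1 array. The 21 of control mice became 907, 48 with 1 dye value, 4 after the spot filter, 0 with the 4 arrays alone and 5 with Bonferroni, and 20 to 25 without 1 array. The 35 of the mean of both strains became 367 without the dye subtraction and 367 with 1 dye value, 55 centred, 4 scaled, 22 and 20 with the first and the second spot, 6 with the 4 arrays alone, 63 over the whole loop, 3 with own variances and 4 with Bonferroni, and 12 to 50 without 1 array. The 4 of mdx minus control became 858 without the dye subtraction, 2 scaled, 7 with the first spot, 2 after the spot filter, 0 with the 4 arrays alone, 8 over the whole loop and 10 with own variances, and 0 to 12 without 1 array.

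The 36 probes in 1 direction on all 4 arrays became 65 without the dye subtraction and 75 with 1 dye value, 81 and 16 with looser and stricter bounds, and 80 to 115 without 1 array. The 34 of mdx mice only became 8 scaled, 81 and 4 with the other bounds, and 46 to 320 without 1 array, and the 8 of control mice only became 61 without the dye subtraction, 5 and 16 with the first and the second spot, 5 after the spot filter, 17 and 3 with the other bounds, and 15 to 130 without 1 array. A pattern read on fewer arrays has fewer conditions to meet. The cause of the other moves was not tested.

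The letters A and B pair no animals across the strains, and the deviations of same-lettered arrays from the strain means correlated with r = 0.1225 across probes. With the letter as a replicate block, 11 probes passed in mdx mice (1 higher and 10 lower), and 1 of the 36 increases and 7 of the 28 decreases kept their call. In control mice 5 passed, 28 in the mean and 3 in mdx minus control, where Prm3 was at an adjusted p of 0.0521 from limma. The median of the macrophage list in mdx mice changes sign with the array left out, as do those of the extracellular matrix, interferon and slow fibre lists.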
